A study of Homo sapiens with 2 samples.

Results

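Histone modifiers mutated in lymphoid leukemia were compared between RNA sequencing libraries of REH and 697, established human cell lines of B-cell precursor acute lymphoblastic leukemia. The 10 genes, all autosomal, were chosen by name as acetyltransferases (CREBBP, EP300), H3K4 methyltransferases (KMT2A, KMT2D), H3K36 methyltransferases (SETD2, NSD2), subunits of Polycomb repressive complex 2 or PRC2 (EZH2, EED, SUZ12) and a subunit of PRC1 (BMI1), and all 10 were found among the 57773 genes counted. REH carries the ETV6/RUNX1 fusion with a deletion of the other ETV6 allele, whereas 697 lacks this fusion. Both lines were grown untreated in RPMI medium with fetal bovine serum, and each is represented by 1 library, so that no variation between cultures could be measured. The counts do not show whether a gene is mutated, which proteins are made or how chromatin is marked.

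Acetyl groups on histone tails, placed by CREBBP and EP300, and methylation of H3K4 mark active enhancers and promoters. SETD2 and NSD2 methylate H3K36, which in its trimethylated form marks transcribed gene bodies. PRC2 methylates H3K27 and PRC1 ubiquitinates H2A, and together they hold developmental genes silent. In lymphoid leukemia, inactivating lesions are known in CREBBP, EP300, SETD2, KMT2D and PRC2 genes, NSD2 is known for activating lesions, KMT2A for rearrangement, and BMI1 for its role in self-renewal.

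The promoters of the 2 genes that differed by over 2-fold, BMI1 and CREBBP, are shown from the RefSeq table for GRCh38.p14, each as the 250 bases before the outermost transcription start listed, 5′ to 3′ on the strand of the gene. No exon is annotated in either window. Capitals mark the letters CANNTG, the general E-box bound by helix-loop-helix factors. The BMI1 window lies at chr10:22320849-22321098 on the plus strand, and the CREBBP window at chr16:3880714-3880963 on the minus strand.
BMI1: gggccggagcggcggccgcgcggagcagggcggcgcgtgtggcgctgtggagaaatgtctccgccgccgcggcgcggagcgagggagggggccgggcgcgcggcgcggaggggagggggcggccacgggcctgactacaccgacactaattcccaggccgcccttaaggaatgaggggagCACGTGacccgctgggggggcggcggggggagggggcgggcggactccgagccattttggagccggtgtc
CREBBP: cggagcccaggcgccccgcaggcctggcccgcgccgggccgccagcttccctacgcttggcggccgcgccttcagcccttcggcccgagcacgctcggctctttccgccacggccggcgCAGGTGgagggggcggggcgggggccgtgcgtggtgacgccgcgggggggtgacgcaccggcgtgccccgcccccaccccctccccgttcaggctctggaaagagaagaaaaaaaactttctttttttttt

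Promoter windows were found for all 10 genes, 13 in total because BMI1, CREBBP and EZH2 each have another listed start. The letters CANNTG, searched on both strands, occurred in 5 of the 13 windows and in 61.8% of the 35116 promoter windows of the same length. In BMI1 the match was CACGTG, beginning 70 bases before the start, and in CREBBP it was CAGGTG, beginning 131 bases before the start. The window of the other listed start had no match in either gene. The letters TGTGGT, a core bound by RUNX1, occurred in 0 of the 13 windows and in 3855 of all windows, and CCGGAAG, a core bound by ETS factors, in 0 of the 13 and in 2991 of all windows. CG dinucleotides were frequent, with 35 in the BMI1 window and 31 in the CREBBP window against a median of 11 over all windows. The count exceeded this median in 12 of the 13 windows, EED being level with it at 11. These matches describe letters in a fixed window and not bound sites.

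The REH library had 45188375 reads in genes and the 697 library 41097497, evenly split between the strands. At this depth 3 reads, a chosen floor, corresponded to 0.0664 CPM (counts per 1000000 reads in genes) in REH and 0.0730 CPM in 697 before scaling. B precursor identity was checked with 10 markers, of which 10 had at least 10 reads in 697 and 9 in REH, the exception being VPREB1 with 3 reads in REH and 10039 in 697. Of 10 markers of T, myeloid and erythroid cells, 6 were at 0 in REH and 5 in 697, with CD3D, CD2, ELANE and HBA1 at 0 in both. Reads matching several places were not counted, so a 0 need not mean lack of expression. The markers with at least 10 reads in REH were MPO (the myeloid peroxidase), CD3E (45 reads) and CD14 (29 reads). In 697 they were MPO (12 reads) and CD8A (10 reads). The summed level of the 10 markers was 253 CPM in REH, of which MPO gave 252 CPM, and 0.893 CPM in 697. Whether this MPO level has a part in the differences described here was not tested.

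All 10 histone modifiers were expressed in both lines, each with over 1000 reads in either library. Expression is given as CPM scaled by the trimmed mean of M-values (TMM), and differences as the log2 ratio of REH over 697, where a ratio of 1 in size is a 2-fold difference. The bracketed range after a ratio is its 95% interval, which covers only the counting error of reads in 1 library per line. Copies of a molecule made by PCR were counted as separate reads, so the interval may be too narrow. In bulk RNA, fewer cells with a transcript and less transcript per cell cannot be told apart.

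CREBBP was 2.65-fold higher in REH and BMI1 was 7.10-fold lower in REH, and these were the 2 genes past a log2 ratio of 1 in size. Among all 19145 genes tested, those that reached 10 reads in REH or 697, 22.4% were past this size on the REH side and 17.4% on the 697 side. Among the 8213 protein-coding genes that reached 1000 reads in REH or 697, which are closer to these genes in depth, the shares were 10.4% and 13%. The count of 1 gene of 10 on either side was close to the latter shares. The median log2 ratio of the 10 genes was 0.058, against 0.053 over all tested genes. Of the 10 ratios 5 lay above 0 and 5 below 0.

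**Figure D1:**
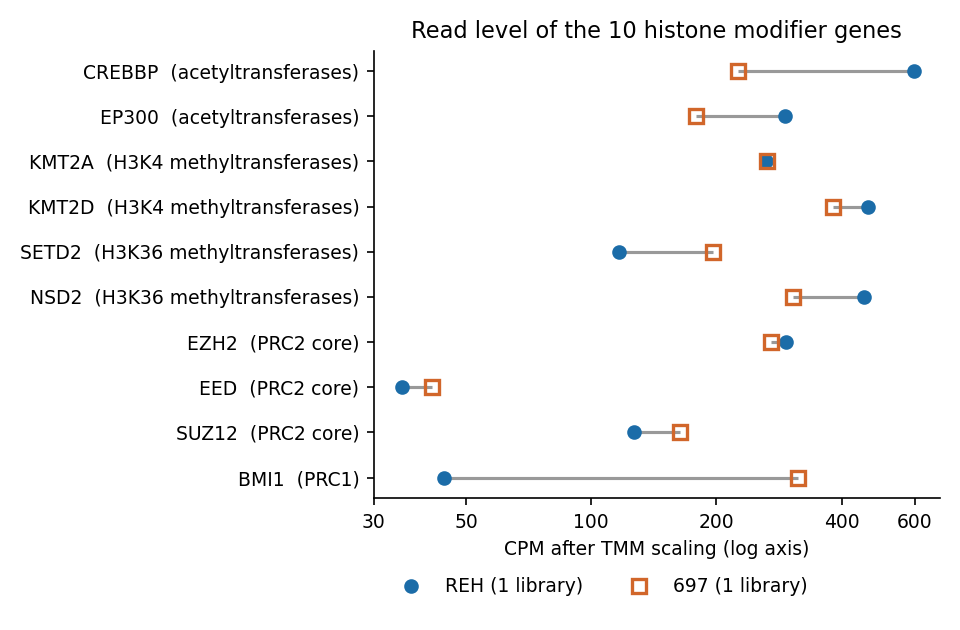
TMM-scaled CPM (log axis) of the 10 genes in the single REH library (filled circles) and the single 697 library (open squares), with a line joining the pair. The longest lines belong to BMI1, at 44.2 CPM in REH and 314 CPM in 697, and to CREBBP, at 598 CPM and 226 CPM, while the KMT2A symbols coincide.

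Both acetyltransferases were higher in REH. CREBBP, which encodes the CREB-binding protein CBP (chromosome 16, 3725054 to 3880713, GRCh38), had 30046 reads in REH and 8339 in 697, or 598 CPM and 226 CPM. Its log2 ratio was 1.41 (1.37 to 1.44), and 6.66% of the deeper protein-coding genes were at least as far toward REH. EP300, which encodes the paralog p300 (chromosome 22, 41092592 to 41180077), had 14677 reads in REH and 6591 in 697, or 292 CPM and 178 CPM. Its log2 ratio of 0.71 (0.67 to 0.75) was below 2-fold, and without TMM scaling it was 1.02. In REH there were 2.05 CREBBP reads for each EP300 read, and in 697 there were 1.27.

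KMT2A and KMT2D, large enzymes of the MLL family that methylate H3K4, differed little between the lines. KMT2A (chromosome 11, 118436456 to 118526832) had 13250 and 9798 reads, or 264 CPM in REH and 265 CPM in 697. Its log2 ratio of -0.0087 (-0.046 to 0.029) was the only one of the 10 whose counting interval included 0, and without TMM scaling it was 0.30. KMT2D (chromosome 12, 49018975 to 49060794) had 23237 and 14061 reads, or 462 CPM and 381 CPM, with a log2 ratio of 0.28 (0.25 to 0.31). KMT2A shares 1.01% of its exon bases with TTC36-AS1 on the opposite strand, and reads there were counted for neither gene. Counting the strands separately added 293 reads to KMT2A in REH and 217 in 697.

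The H3K36 methyltransferases lay on opposite sides. SETD2, the enzyme of H3K36 trimethylation (chromosome 3, 47016428 to 47164113), had 5858 reads in REH and 7236 in 697, or 117 CPM and 196 CPM. Its log2 ratio was -0.75 (-0.80 to -0.70), that is 1.68-fold higher in 697. NSD2, which dimethylates H3K36 (chromosome 4, 1871393 to 1982207), had 22790 reads in REH and 11280 in 697, or 453 CPM and 305 CPM. Its log2 ratio was 0.57 (0.54 to 0.60), that is 1.49-fold higher in REH.

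The core of PRC2 was expressed at similar levels in the lines. EZH2, the catalytic subunit (chromosome 7, 148807257 to 148884321), had 14799 reads in REH and 9978 in 697, or 294 CPM and 270.1 CPM, and a log2 ratio of 0.12 (0.088 to 0.16). SUZ12, needed for assembly of the complex (chromosome 17, 31937007 to 32001038), had 6361 and 6038 reads, or 127 CPM and 163 CPM, and a ratio of -0.37 (-0.42 to -0.32). EED, which binds trimethylated H3K27 (chromosome 11, 86201212 to 86278813), had 1763 and 1528 reads, or 35.1 CPM and 41.4 CPM, the fewest of the 10 genes in either library. Its log2 ratio was -0.24 (-0.34 to -0.14), and it turned to 0.069 without TMM scaling.

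BMI1, also named PCGF4, is the Polycomb ring finger protein that partners RING1 or RNF2 in PRC1 (chromosome 10, 22321099 to 22331484). It had 2224 reads in REH and 11611 in 697, or 44.2 CPM and 314 CPM. The log2 ratio of -2.83 (-2.89 to -2.76) was the largest in size of the 10, and 3.09% of the deeper protein-coding genes were at least as far toward 697. It ranged from -2.86 to -2.52 over the alternative scalings, strand columns and filters. At a log2 ratio of 2 in size BMI1 still passed and CREBBP did not, where 12.5% of all tested genes passed on the REH side and 8.15% on the 697 side. Among the deeper protein-coding genes these shares were 4.41% and 4.76%.

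The BMI1 count rests on part of the gene. The read-through gene COMMD3-BMI1 shares 1000 of the 4395 annotated exon bases of BMI1, and its other 904 bases lie in COMMD3, leaving 0 bases of its own. It was listed at 0 reads in both libraries, which follows from this overlap and says nothing of its expression. Under the counting rule, reads within the shared bases went to neither gene, so the 3395 remaining bases carry the BMI1 value. Reads within the 904 bases in COMMD3 were likewise left out of the COMMD3 count. The COMMD3 values below therefore also rest on part of that gene. The exons are those of GENCODE 44, and the annotation used for counting may differ.

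Levels of different genes were compared per kb of exon. On all annotated exons, BMI1 was the highest of the 10 genes in 697 at 71.5 CPM per kb and the 7th in REH at 10.1 CPM per kb. These BMI1 levels divide by all 4395 bases and are therefore too low if the shared bases gave no reads. Over the 3395 unshared bases they were 92.6 CPM per kb in 697 and 13.0 CPM per kb in REH, with the same ranks. CREBBP was the highest in REH at 38.6 CPM per kb and the 7th in 697 at 14.6 CPM per kb. EZH2 was the 2nd in both, at 27.3 and 25.1 CPM per kb, and EED the lowest in both, at 5.01 and 5.91 CPM per kb. In 697 the intervals of EZH2 and SUZ12 overlapped, as did those of EP300, NSD2, KMT2D and CREBBP in turn, and in REH those of KMT2A and SETD2. Among protein-coding genes with at least 10 reads, BMI1 was at the 96.5th percentile in 697 and the 66.9th in REH.

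This order depended on the length used. EZH2 has 10774 exon bases over all annotated transcripts but 2654 in its canonical transcript, and on canonical lengths it was the highest in both lines, at 111 CPM per kb in REH and 102 CPM per kb in 697. BMI1 was then the 2nd in 697 at 88.8 CPM per kb and the 10th in REH at 12.5 CPM per kb. Over the 2540 of its 3540 canonical bases that no other counted gene shares, BMI1 was at 124 CPM per kb in 697, the 1st and above EZH2, and at 17.4 CPM per kb in REH, the 7th. CREBBP was the 3rd in REH and the 6th in 697. Whichever length was used, BMI1 was the 1st or 2nd in 697 and between the 7th and the 10th in REH.

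Ratios between genes within a library do not depend on how the libraries are scaled, and so the balance of paralogs and subunits was compared. The value given is the log2 of the read ratio in REH over the same ratio in 697, with a 95% counting interval. CREBBP was higher relative to EP300 in REH, at 0.69 (0.64 to 0.75). For KMT2A relative to KMT2D it was -0.29 (-0.34 to -0.24), and relative to MEN1, the menin cofactor of KMT2A, -0.24 (-0.31 to -0.16). NSD2 relative to SETD2 had the largest value of the 8 pairs without BMI1, at 1.32 (1.26 to 1.38), with 3.89 NSD2 reads per SETD2 read in REH and 1.56 in 697. Relative to its paralog NSD1 the value was 0.61 (0.56 to 0.67).

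Within PRC2, EZH2 was weighed against EZH1, the paralog that can replace it. There were 3.74 EZH2 reads per EZH1 read in REH and 2.08 in 697, a value of 0.85 (0.77 to 0.92). EED and SUZ12 relative to EZH2 were at -0.36 (-0.47 to -0.26) and -0.49 (-0.56 to -0.43). In PRC1, 3 pairs were added after the data were seen, because PCGF2, the paralog of BMI1 intended for its pair, was not analysed here for want of a matching identifier. BMI1 had 0.870 reads per read of the E3 ligase RNF2 in REH and 6.85 in 697, a value of -2.98 (-3.09 to -2.87). Relative to the other ligase RING1 the value was -3.54 (-3.65 to -3.42).

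**Figure D2:**
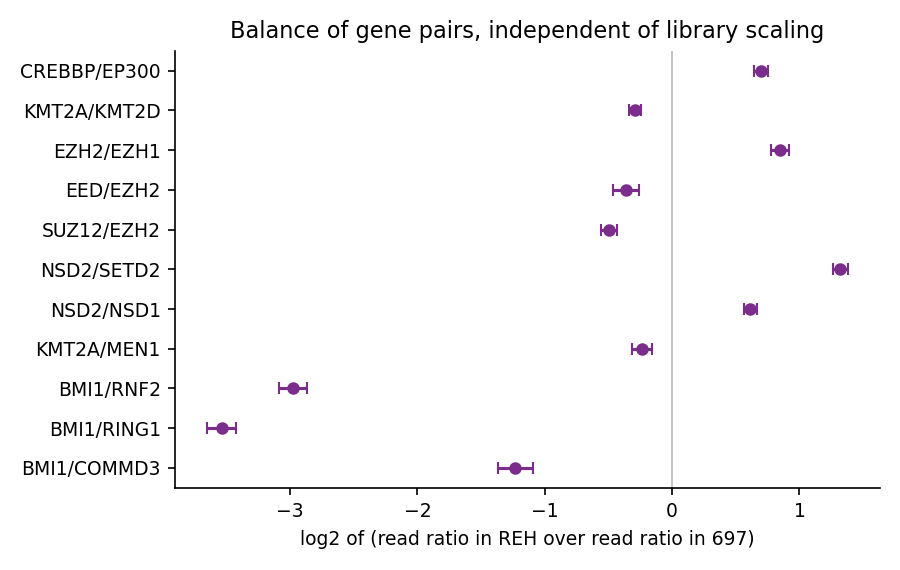
Log2 of the read ratio of each gene pair in REH over that in 697, 1 library per line, with bars for the 95% counting interval. The 3 BMI1 pairs lie between -3.54 and -1.23, while the 8 others lie between -0.49 and 1.32.

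The chromosomal surroundings of the 10 genes, which lie on 9 chromosomes, were examined through the 10 nearest protein-coding genes on each side that reached 100 reads in REH or 697. BMI1 lay below 19 of its 20 neighbours. The exception was SPAG6, which encodes a sperm flagellar protein and is the next gene, for which 13 reads were counted in REH against 5796 in 697, a log2 ratio of -9.19 (-10.15 to -8.47). COMMD3, the gene before BMI1 on the same strand, was also lower in REH, with 807 and 1794 reads (-1.60, -1.72 to -1.48), and the log2 read ratio of BMI1 to COMMD3, a pair also added after the data were seen, differed between the lines by -1.23 (-1.37 to -1.10). Beyond these, DNAJC1 had a ratio of -0.31 (-0.43 to -0.18) and PIP4K2A of -0.037 (-0.14 to 0.069). COMMD3, BMI1 and SPAG6, which are adjacent, were thus all lower in REH by over 2-fold, and the next gene on either side was not. Farther out, 6 more of the 20 neighbours were past 2-fold toward 697, VIM and 5 genes beyond PIP4K2A. In all, 8 of the 20 were past 2-fold toward 697 and 1 toward REH. Other genes of the 10 had as many such neighbours. SETD2 had 9 toward 697 and 2 toward REH, CREBBP 1 and 7, and NSD2 3 and 7. The rest had at most 5 in either direction. Over all tested genes the shares past 2-fold were 17.4% and 22.4%, and over the deeper protein-coding genes 13% and 10.4%. The median over the 20 neighbours of BMI1 was -0.42 and over the 435 other genes of chromosome 10 it was -0.16.

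CREBBP lies on a chromosome whose genes were higher in REH in general, with a median log2 ratio of 0.65 over 560 other genes of chromosome 16 and 0.65 over its 20 neighbours. CREBBP exceeded the chromosome median by 0.75 and was above 17 of the 20 neighbours. The adjacent genes TRAP1 and ADCY9 were lower in REH, at -0.81 (-0.87 to -0.75) and -0.91 (-0.99 to -0.82). Among the other chromatin genes listed on chromosome 16, SETD1A was at 1.01 and KAT8 at 0.60. The copy number of chromosome 16 was not measured, and its part in these values was not tested.

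For SETD2 and NSD2 most neighbours lay on the same side of 0 as the gene itself. Their copy number was not measured, and its part was not tested. Of the 20 neighbours of SETD2, 18 had a ratio below 0, with a median of -0.93 against -0.75 for SETD2 itself, while the median of chromosome 3 was -0.24. BAP1, the H2A deubiquitinase on the same chromosome, named after its value was seen, was at -0.78 (-0.84 to -0.73). The other 4 listed genes of chromosome 3 did not share this value, with PHC3 at 0.36, RYBP at 0.20 and KAT2B at -0.014. The last of them, HDAC11, was at 0.13 (-0.51 to 0.81) from 51 and 34 reads. How far these genes lie from SETD2 was not compared. Of the 20 neighbours of NSD2, 17 had a ratio above 0, with a median of 0.77 against 0.57 for NSD2 and 0.013 for chromosome 4. For EP300 the neighbours had a median of 0.20, for KMT2D -0.45, for KMT2A 0.41, for SUZ12 0.12, for EZH2 0.095 and for EED -0.063.

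**Figure D3:**
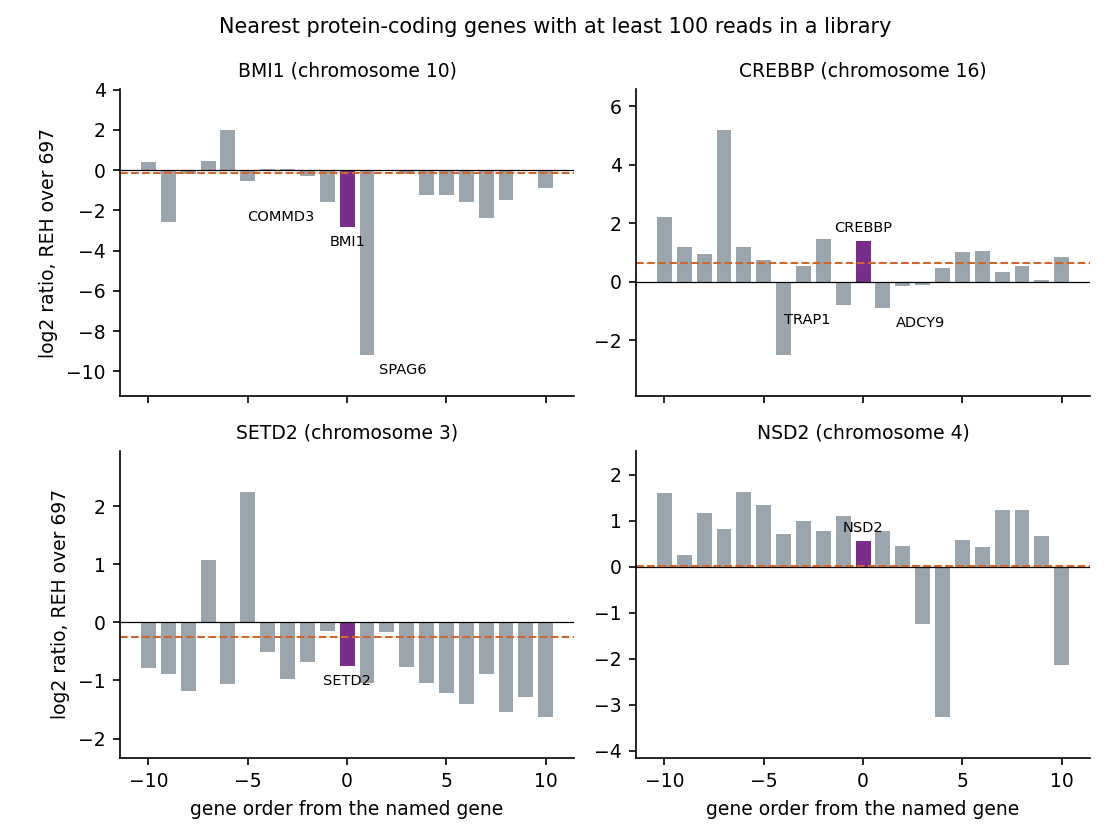
Log2 ratio of REH over 697 for BMI1, CREBBP, SETD2 and NSD2 (purple) and the 10 nearest protein-coding genes on each side (grey bars), in order along the chromosome, with the dashed line at the chromosome median and a separate vertical axis for each panel. COMMD3 and SPAG6 beside BMI1 lie below 0 with it, whereas 18 of 20 neighbours of SETD2 lie below 0 and 17 of 20 neighbours of NSD2 above 0.

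Other genes of the same complexes and marks were then described, from 7 lists with 76 autosomal genes. Of these, 73 had a match and enough reads, and 68 were within 2-fold. Past 2-fold were 3 genes higher in REH and 2 higher in 697, against backgrounds of 22.4% and 17.4% over all tested genes. Of the 73 genes 65 reached 1000 reads in REH or 697, and over the protein-coding genes of that depth the backgrounds were 10.4% and 13%. Without TMM scaling 9 and 2 genes were past 2-fold. The median log2 ratio over the 73 genes was 0.072.

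Among 7 other acetyltransferases, KAT2A, the GCN5 enzyme of the SAGA complex, was 3.34-fold higher in 697, with 34.6 CPM against 116 CPM and a log2 ratio of -1.74 (-1.82 to -1.66). The other 6 were within 2-fold, with KAT8 the highest relative to 697. Thus CREBBP and KAT2A lay on opposite sides. Among 11 tested H3K4 methyltransferases and shared subunits, SETD1B at 1.13 (1.05 to 1.20) and SETD1A at 1.01 (0.95 to 1.07), catalytic subunits of the SET1 complexes, were past 2-fold toward REH. The ratio of SETD1A was 0.98 with DESeq2 size factors and 0.97 in the second strand column, below 2-fold in both. PSIP1, which tethers KMT2A complexes to chromatin, was the lowest at -0.56 (-0.59 to -0.52). KMT2B was listed at 0 reads in both libraries and was not compared. Whether the annotation used for counting placed this gene under the same identifier was not tested. Its 0 is therefore not read as lack of expression. The 4 other H3K36 and H3K79 methyltransferases lay between -0.36 for DOT1L and 0.26 for ASH1L.

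Of 7 PRC2 partners, 5 had a ratio below 0 and none passed 2-fold, with a median of -0.35. JARID2, which helps recruit the complex, was at 128 CPM in REH and 238 CPM in 697 (-0.89, -0.94 to -0.85), and EZH1 was at 78.6 CPM and 129.6 CPM (-0.72, -0.78 to -0.66). PHF1, a Polycomb-like protein, was the highest at 0.86 (0.77 to 0.95). Of 20 PRC1 partners, PHC1, a polyhomeotic subunit, passed 2-fold toward REH with 694 and 202 reads (1.33, 1.11 to 1.57). The ratio of PHC1 was 1.12 in the second strand column and 1.00 in the first, at the 2-fold line. PCGF5, a ring finger paralog of BMI1, was the lowest at -0.92 (-0.99 to -0.84), and RING1 and RNF2 were at 0.71 (0.61 to 0.80) and 0.15 (0.060 to 0.24). None of the 20 came near the ratio of BMI1.

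Among 11 histone demethylases, none passed 2-fold. KDM6B, which removes H3K27 methylation, was the highest at 0.93 (0.87 to 0.99) and KDM4C the lowest at -0.68 (-0.76 to -0.60). Among 13 deacetylases and corepressors, HDAC9, a class IIa deacetylase, was at 61.2 CPM in REH and 198 CPM in 697 (-1.69, -1.75 to -1.63), and HDAC10 was the highest at 0.72 (0.45 to 1.01). Summed over the 13, REH had 1859 CPM and 697 had 2049 CPM.

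**Figure D4:**
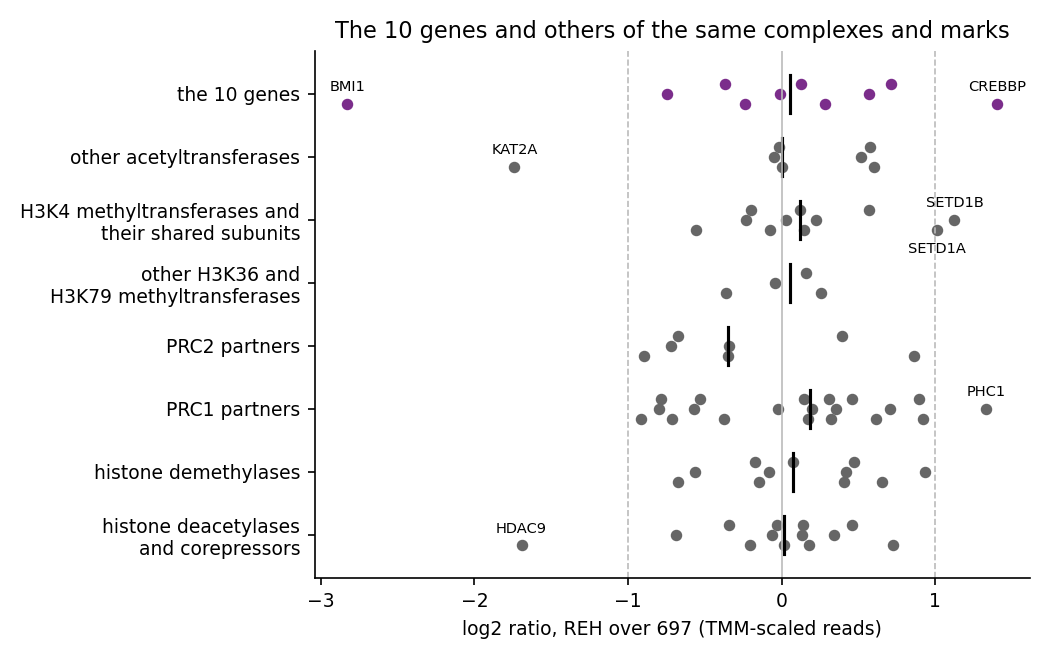
Log2 ratio of REH over 697 for the 10 genes (purple) and for the 73 tested genes of the 7 lists (grey), 1 point per gene, with a black bar at each median, dashed lines at a ratio of 1 in size, and names for genes past it. BMI1 at -2.83 lies farthest from 0, and the list medians lie between -0.35 and 0.19.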

How the data were processed

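For each line the authors deposited 1 table of gene-level read counts from STAR, neither normalized nor filtered. The methods of the study name hg38 and poly(A) purification, whereas the processing notes name hg19 and the labels ribodepletion with strand kept. Genes were therefore matched by identifier alone, and positions and exon lengths are those of GENCODE 44 on GRCh38. The column with reads on either strand was used, since both strand columns held nearly equal totals. Reads matching several places or several genes are absent from the counts.

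TMM factors from edgeR 4.0.16 (R 4.3.3) were 1.11 for REH and 0.899 for 697, over 19145 genes that reached 10 reads in REH or 697. The log2 ratio used 0.5 added reads, with the Clopper-Pearson interval of the share of reads from REH at 95%, Wilson intervals for a level and Wald intervals for the balance of a pair. With 1 library per line there is no p-value, and each ratio compares these libraries. DESeq2 1.42.0 gave alternative size factors. Named partners were those past a log2 ratio of 1 in size with at least 100 reads, and the extremes of each list. The 10 genes and the lists were chosen with earlier results of these data known. The formulas for ratios and intervals were tested on simulated counts with counting error only. That test did not cover TMM scaling, overlap of genes or variation between cultures. Python 3.11.15 was used for the remaining steps.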

Additional observations from a re-analysis of the deposited data

How the results depend on the processing

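With totals not TMM-scaled, the median log2 ratio of all tested genes shifted by 0.31. The median of the 10 genes was then 0.37, with 2 of them higher in REH by 2-fold (EP300 joining CREBBP), and 9 of the partner genes. KMT2A and EED changed sign, and over all genes 5456 were higher in REH and 2566 in 697, against 4293 and 3336. DESeq2 size factors and the second strand column each left 2 partner genes higher in REH. With a threshold of 2, there were 0 of the 10 genes and 0 partner genes higher in REH, 0 partner genes higher in 697, and 2396 and 1560 genes in all. A minimum of 1 read gave 9320 and 7064 genes, and a minimum of 50 reads gave 2754 and 2284. The ratios of BMI1, CREBBP, EP300, NSD2, SETD2, KMT2D, EZH2 and SUZ12 kept their sign under each alternative run. The pairs kept theirs under both strand columns. Levels per kb on canonical lengths or unshared bases and the added pairs were chosen after seeing the data. BMI1 relative to PCGF2 was not run. No paired analysis was possible because REH and 697 have 1 library each, and no replicate could be left out. The intervals cover counting error only, and variation between cultures was not measured.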
